A study of Mus musculus with 6 samples.

Results

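The unfolded protein and amino acid stress genes described here, 45 in all, were chosen by symbol as known members of these programmes, and the difference between genotypes was not part of the rule. Of these, 41 had a probe set of their own on the array, out of 30142 genes tested in all. Pdia4 and Manf shared their probe sets with another gene and were left out, and Pycr1 and Vldlr-as were not matched to a probe set. The genes were ordered by role, as 5 stress sensors, 3 upstream regulators, 18 targets of ATF4, 10 genes of ER folding, 8 of ER degradation and translocation, and Vldlr-as, to which no role was given.

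The unfolded protein response and the amino acid response are the programmes by which a cell meets a load of misfolded protein in the endoplasmic reticulum (ER) or a shortage of amino acids. In the ER the sensors IRE1 (gene Ern1), PERK (Eif2ak3) and ATF6 detect misfolded protein, and they raise chaperones and degradation machinery through the factors XBP1 and ATF6. PERK and its relatives HRI (Eif2ak1) and GCN2 (Eif2ak4) phosphorylate the initiation factor eIF2, which slows translation in general but favours that of ATF4, and ATF4 in turn induces enzymes of amino acid synthesis and stress genes such as Ddit3. Myeloid cells that make granule proteins carry a large ER, and acute myeloid leukemia cells are known to depend on amino acid supply.

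RNA came from mouse leukemia driven by the fusion oncogene MLL-AF9, which a murine stem cell virus vector had delivered together with green fluorescent protein (GFP). The 6 arrays were of 3 samples of Ppara-/- leukemia, which lacks the fatty acid-sensing nuclear receptor PPARA, and 3 of Ppara+/+ leukemia, which carries both alleles; the mice had been backcrossed, and all 6 samples carried MLL-AF9 and GFP. Cells were mononuclear bone marrow cells of secondary transplant recipients, sorted for GFP. The labels give neither the age of the mice nor the genotype of the recipients, nor whether each array came from its own animal or primary leukemia. The p-values thus cover the spread among these 6 samples only, which may be technical.

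The values are log2 signals, and all differences are Ppara-/- minus Ppara+/+. The negative controls had a median of 4.63, 4.99 and 4.65 on Ppara-/- arrays 1, 2 and 3 and of 5.16, 4.67 and 4.81 on Ppara+/+ arrays 1, 2 and 3. Ppara itself had signals of 5.29, 5.05 and 5.23 in Ppara-/- leukemia and 4.87, 5.19 and 5.18 in Ppara+/+ leukemia, near those medians, and what part of the gene its probes match is not given in the sources used here, so it does not check the genotype labels. Defining genes of the sorted leukemia cells were bright (the mean over 9 measured markers such as Mpo, Elane, Itgam and Meis1 was 10.07 to 10.56 in Ppara-/- and 10.10 to 10.48 in Ppara+/+ samples). None of the 9 passed the test. Every Ppara-/- value lay above every Ppara+/+ value in Kit (difference 0.54, limma adjusted p = 0.546) and Csf3r (0.37, limma adjusted p = 0.470). That order was found in 5.15% of all genes, and the other markers of this list overlapped. Markers of plasma and B cells, secretory plasma cells being rich in ER, had a mean over 11 genes of 5.15 to 5.31 in Ppara-/- and 5.12 to 5.37 in Ppara+/+ samples, and none of the 11 passed the test. Their levels over the 6 arrays ran from 3.41 for Jchain to 7.63 for Tnfrsf13b and 7.70 for Cd79b. Jchain, Ms4a1 and Prdm1 lay under the negative-control median on every array. In 2 of the 11, Cd79b and Tnfrsf13b, every Ppara-/- value lay below every Ppara+/+ value, as in 3.63% of all genes. Cd79b had 7.68, 7.49 and 7.32 in Ppara-/- and 7.95, 7.72 and 8.01 in Ppara+/+ samples (difference -0.40, SE 0.13, limma adjusted p = 0.615). The difference of Tnfrsf13b was -0.11 (limma adjusted p = 0.997). What part these B and plasma cell markers have in the values below was not tested. The mean over 12 monocyte and macrophage markers was 6.64 to 6.90 in Ppara-/- samples and 7.32 to 7.42 in Ppara+/+ samples. Their median difference was -0.51, with 10 negative and 2 positive values. In 7 of the 12 every Ppara-/- value lay below every Ppara+/+ value, as in 3.63% of all genes. Of the 12, 1 passed the test, Vcam1 (difference -1.39). The part of these markers in the values below was not tested. In bulk RNA, fewer cells of a type and less RNA per cell cannot be told apart.

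No stress gene passed the test: 0 of 41 differed between genotypes (limma with Benjamini-Hochberg adjustment over 30142 genes, adjusted p from 0.434 to 0.997), against 0.126% of all genes (38 of 30142). At an unadjusted p under 0.05 there were 5 of 41 (limma), with 5.78% of all genes at that level, and limma called 0 of the 23 to 41 stress genes that each of the 18 other fits held. The median difference over the 41 genes was -0.07, a signal ratio of 1.05, with 24 negative and 17 positive values, and the median over all genes was 0.02. The 95% intervals of all 41 differences lay inside -1 to 1 on the log2 scale, from -0.96 to 0.86. For each gene taken alone a 2-fold difference in signal thus lay outside the interval. This holds for array signal only. Of the 41 genes 23 had a mean above 7.91, the lowest of the 6 arrays' 95th percentiles of the negative controls. In the others a signal near the negative controls could hide a 2-fold difference in RNA. The count of 38 genes fell to 6 without Ppara-/- replicate 1, to 17 without Ppara-/- replicate 2 or 3, and to 13 without Ppara+/+ replicate 3.

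**Figure D1:**
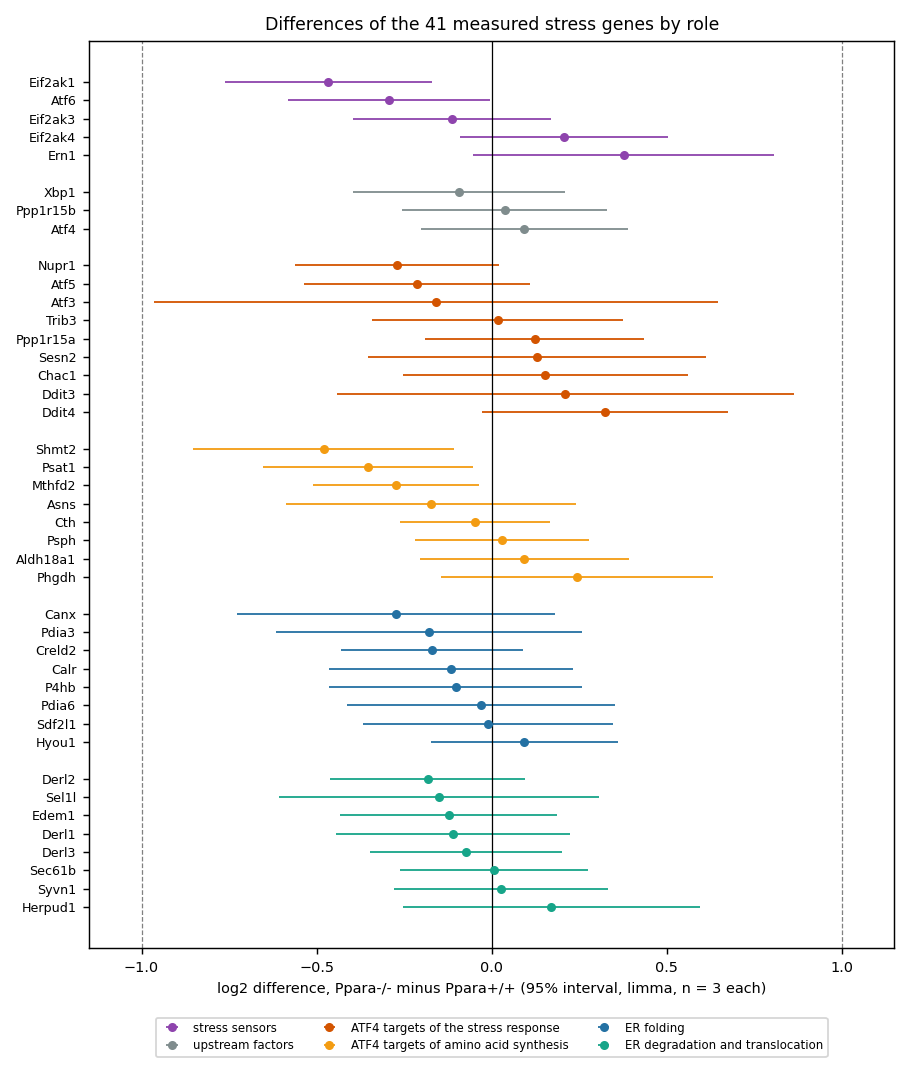
Log2 difference in signal, Ppara-/- minus Ppara+/+, with its 95% interval from limma (horizontal axis; n = 3 arrays each) for the 41 measured stress genes, coloured by role; dashed lines mark -1 and 1. All intervals lie between the dashed lines, and 36 of 41 hold 0.

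Among the stress sensors Eif2ak1, the heme-regulated eIF2 kinase that is prominent in the erythroid lineage, had the smallest p of all 41 genes. Its signals were 8.06, 8.18 and 8.03 in Ppara-/- leukemia and 8.77, 8.33 and 8.57 in Ppara+/+ leukemia. Every Ppara-/- value lay below every Ppara+/+ value, with a difference of -0.47 (SE 0.13, 95% interval -0.76 to -0.17; limma adjusted p = 0.434). Such separation in the lower direction was found in 3.63% of all genes and in either direction in 8.78%; of the 41 stress genes, 5 were separated in the lower and 1 in the upper direction. Atf6, an ER membrane factor that is cut to release its active part, gave 8.18, 8.26 and 8.35 in Ppara-/- and 8.79, 8.40 and 8.48 in Ppara+/+ samples. The groups did not overlap here either, and the difference was -0.29 (SE 0.13, interval -0.58 to -0.01; limma adjusted p = 0.859).

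Ern1, the kinase and nuclease that splices Xbp1 messenger RNA, had signals of 8.64, 8.26 and 9.07 in Ppara-/- and 8.33, 8.16 and 8.35 in Ppara+/+ samples. Its difference of 0.38 (SE 0.19, interval -0.05 to 0.81; limma adjusted p = 0.950) was smaller than the range of 0.81 among the Ppara-/- arrays, of which replicate 3 was high. The PERK gene Eif2ak3 had a difference of -0.11 and the GCN2 gene Eif2ak4 one of 0.21, both with overlapping groups. The 5 sensors had 3 negative and 2 positive differences, with a median of -0.11.

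The factors downstream of the sensors had differences of -0.09 to 0.09. Atf4 gave 9.08, 8.97 and 9.28 in Ppara-/- and 8.92, 8.91 and 9.22 in Ppara+/+ samples (difference 0.09, SE 0.13, interval -0.20 to 0.39; limma adjusted p = 0.997). Xbp1 gave 9.20, 9.43 and 9.10 in Ppara-/- and 9.53, 9.18 and 9.30 in Ppara+/+ samples (difference -0.09, interval -0.40 to 0.21). Ppp1r15b, the constitutive partner of the phosphatase that restores eIF2, gave 9.05, 9.33 and 9.21 in Ppara-/- and 9.24, 8.95 and 9.29 in Ppara+/+ samples (difference 0.04, interval -0.26 to 0.33). In all 3 genes the groups overlapped over most of their range. ATF4 is controlled largely by translation, XBP1 by splicing and ATF6 by cleavage, and these signals measure none of those steps.

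Among the 8 measured ATF4 targets of amino acid synthesis 3 genes were lower in all 3 Ppara-/- samples than in any Ppara+/+ sample. That order was found in 3.63% of all genes, and none of the 8 passed the test. Shmt2, the mitochondrial enzyme that converts serine to glycine and feeds one-carbon units, had 8.25, 8.24 and 7.83 in Ppara-/- and 8.87, 8.48 and 8.41 in Ppara+/+ samples. Its difference of -0.48, a signal ratio of 1.39, was the largest in size of the 41 (SE 0.16, interval -0.85 to -0.11; limma adjusted p = 0.653). Mthfd2, the next mitochondrial enzyme of the one-carbon pathway, had 6.67, 6.83 and 6.74 in Ppara-/- and 6.91, 7.03 and 7.12 in Ppara+/+ samples (difference -0.27, SE 0.10, interval -0.51 to -0.04; limma adjusted p = 0.776). Psat1, which makes phosphoserine on the route to serine, had 7.08, 7.03 and 6.88 in Ppara-/- and 7.60, 7.23 and 7.22 in Ppara+/+ samples (difference -0.35, SE 0.13, interval -0.65 to -0.05; limma adjusted p = 0.748). The groups were apart by 0.08 log2 units between the nearest arrays of Mthfd2, and by less than the range within Ppara+/+ in all 3 genes.

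The enzymes on either side of Psat1 did not share that order. Phgdh, which opens serine synthesis, had a difference of 0.24, and Psph, which closes it, one of 0.03; both groups overlapped. Asns, which makes asparagine, had a difference of -0.17, Aldh18a1 of proline synthesis 0.09, and Cth, which makes cysteine, -0.05 at a signal under the negative-control medians. Over the 8 measured genes of amino acid synthesis 5 differences were negative and 3 positive, with a median of -0.11, and 1 of the 8, Shmt2, had a mean above 7.91, the lowest of the 6 arrays' 95th percentiles of the negative controls.

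**Figure D2:**
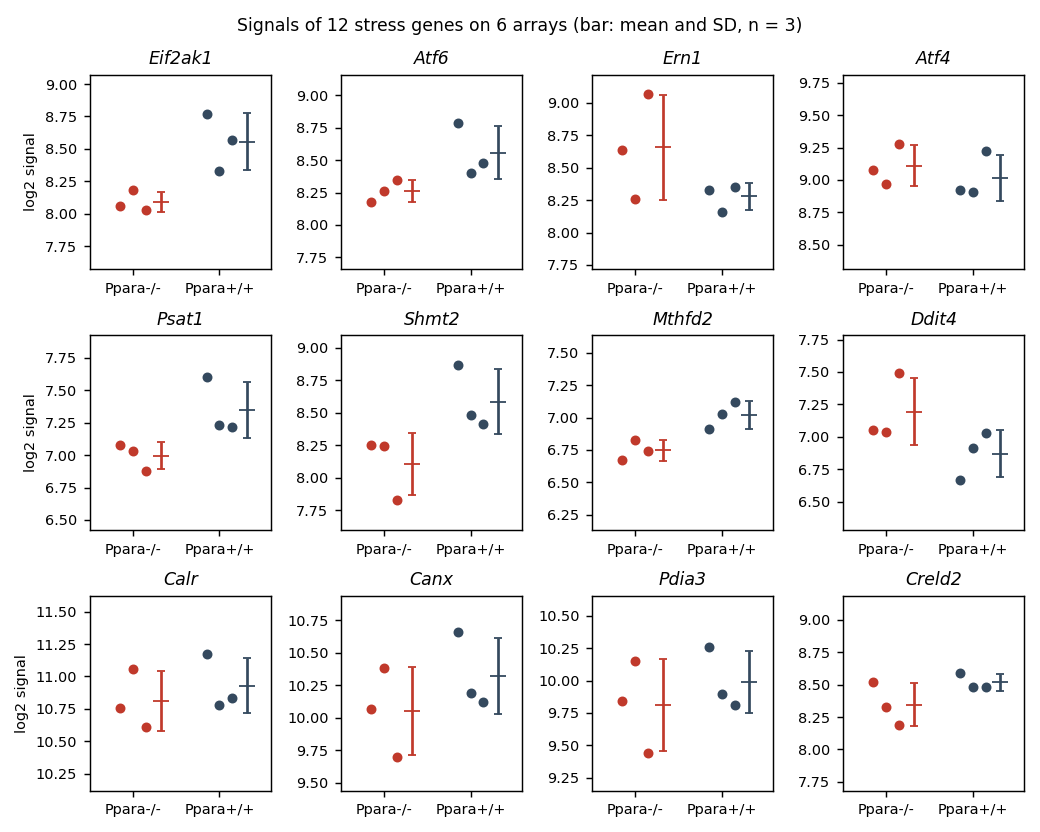
Log2 signal (vertical axis, 1.5 units in every panel) on each array for 12 stress genes, Ppara-/- left and Ppara+/+ right, in the order of replicates 1 to 3, with the mean and SD beside the points (n = 3). The groups are apart in Eif2ak1, Atf6, Psat1, Shmt2, Mthfd2 and Ddit4 and overlap in Ern1, Atf4, Calr, Canx, Pdia3 and Creld2.

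For each of the 9 ATF4 targets of the stress response, the larger of the within-genotype ranges exceeded the difference between genotypes. Ddit4, an inhibitor of the growth kinase mTORC1, was the gene separated in the upper direction, with 7.05, 7.04 and 7.49 in Ppara-/- and 6.67, 6.91 and 7.03 in Ppara+/+ samples (difference 0.32, SE 0.15, interval -0.03 to 0.67; limma adjusted p = 0.922); 5.15% of all genes were separated that way, and the nearest arrays of Ddit4 were 0.01 apart. Atf3, a stress-induced repressor, had 8.91, 8.52 and 9.90 in Ppara-/- and 9.06, 8.92 and 9.83 in Ppara+/+ samples. Its difference was -0.16 (SE 0.35, interval -0.96 to 0.64; limma adjusted p = 0.997), while the arrays of one genotype spread over 1.38 in Ppara-/- and 0.91 in Ppara+/+ leukemia. Ddit3, the death-promoting factor CHOP, spread over 0.94 in Ppara-/- and 0.99 in Ppara+/+ leukemia, with a difference of 0.21; its other, dimmer probe set gave 0.30.

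Of the remaining stress targets, Nupr1 had signals of 5.32, 5.13 and 5.45 in Ppara-/- and 5.39, 5.62 and 5.70 in Ppara+/+ samples (difference -0.27, SE 0.13, interval -0.56 to 0.02; limma adjusted p = 0.914). Atf5, a factor of the same family as ATF4, had 6.75, 6.71 and 6.84 in Ppara-/- and 6.68, 7.07 and 7.19 in Ppara+/+ samples (difference -0.21, interval -0.54 to 0.11). The groups overlapped in both. Ppp1r15a, which encodes the inducible partner of the eIF2 phosphatase, had a difference of 0.12, the mTORC1 regulator Sesn2 0.13, the glutathione-degrading enzyme Chac1 0.15 and the pseudokinase Trib3 0.02. The 9 stress targets had 6 positive and 3 negative differences, with a median of 0.12. Together with the 8 enzymes the ATF4 targets numbered 17, with 9 positive and 8 negative differences and a median of 0.02 (the mean was -0.04).

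ATF4 and its C/EBP partners are known to bind the composite element TGATGCAA in the promoters of target genes. Windows of 300 bases around annotated gene starts (250 before and 50 after; RefSeq, GRCm38.p6) were at hand for 38 of the 45 genes and were searched on both strands. Among genes with a window the ATF4 element was found in 3 of 9 stress targets, in 1 of 8 enzymes of amino acid synthesis and in Herpud1 of ER degradation. Over all 32851 windows the share was 0.895% (294). The enzyme with the match was Pycr1, which was not measured, so these 8 enzymes are not the 8 measured ones. Each stretch below is shown because it holds the match, in capitals, on the strand of the gene and with 15 bases on either side, and TTGCATCA is the same element read from the opposite strand.
Atf3, chr1:191183421-191183458, minus strand: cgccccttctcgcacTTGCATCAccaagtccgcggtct
Chac1, chr2:119351034-119351071, plus strand: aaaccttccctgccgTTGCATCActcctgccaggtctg
Nupr1, chr7:126625558-126625595, minus strand: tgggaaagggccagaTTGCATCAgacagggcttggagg
Herpud1, chr8:94386302-94386339, plus strand: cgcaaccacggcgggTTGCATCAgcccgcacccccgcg
Pycr1, chr11:120643829-120643866, minus strand: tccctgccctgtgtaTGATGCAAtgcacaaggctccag

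The 4 measured genes with this element had differences of -0.27 to 0.17, 2 of them negative.

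Genes of ER folding were bright, and the genotypes overlapped in all 8 measured. Calr and Canx are the lectin chaperones that hold newly glycosylated proteins, and Pdia3, Pdia6 and P4hb form and shuffle disulfide bonds. Calr had signals of 10.76, 11.06 and 10.61 in Ppara-/- and 11.17, 10.78 and 10.83 in Ppara+/+ samples (difference -0.12, SE 0.15, interval -0.47 to 0.23; limma adjusted p = 0.997). Canx had 10.07, 10.38 and 9.70 in Ppara-/- and 10.66, 10.19 and 10.12 in Ppara+/+ samples (difference -0.27, SE 0.20, interval -0.73 to 0.18). Pdia3 had 9.84, 10.15 and 9.44 in Ppara-/- and 10.26, 9.90 and 9.81 in Ppara+/+ samples (difference -0.18, interval -0.62 to 0.26). In each of these 3 genes Ppara-/- replicate 2 and Ppara+/+ replicate 1 were the highest arrays and Ppara-/- replicate 3 the lowest.

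Creld2, an ER protein that is induced on stress, had 8.52, 8.33 and 8.19 in Ppara-/- and 8.59, 8.48 and 8.48 in Ppara+/+ samples (difference -0.17, SE 0.11, interval -0.43 to 0.09). P4hb had a difference of -0.10, Pdia6 -0.03 and Sdf2l1, a partner of the ER chaperone BiP, -0.01, while Hyou1, which releases nucleotide from BiP, had 0.09. Of the 8 measured folding genes 7 had a negative and 1 a positive difference, and the median was -0.11, a signal ratio of 1.08. That median rested on Ppara-/- replicate 3: without it the value was 0.04, and without each of the other arrays it lay between -0.19 and -0.04. Among the 4379 genes with a mean above 7.91, where all 8 folding genes lie, 54.7% of differences were negative and the median was -0.02.

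Genes of ER degradation and translocation also had overlapping groups. Herpud1, a stress-induced scaffold of the degradation complex, had 9.71, 10.00 and 10.00 in Ppara-/- and 9.77, 9.34 and 10.09 in Ppara+/+ samples (difference 0.17, SE 0.19, interval -0.25 to 0.59; limma adjusted p = 0.997). Sel1l, the adaptor of the ubiquitin ligase Syvn1, had 8.00, 8.30 and 7.71 in Ppara-/- and 8.54, 7.88 and 8.04 in Ppara+/+ samples (difference -0.15, interval -0.61 to 0.31). Derl2 had 6.0, 6.03 and 5.90 in Ppara-/- and 6.34, 5.95 and 6.19 in Ppara+/+ samples (difference -0.18, interval -0.46 to 0.10). The 8 differences had a median of -0.09, and 3 of them, those of Herpud1, Syvn1 and Sec61b, were positive. Edem1, which marks misfolded glycoproteins, had a difference of -0.12, the channel components Derl1 and Derl3 -0.11 and -0.07, Syvn1 0.03 and the translocon subunit Sec61b 0.01.

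ATF6 and XBP1 are known to act on folding and degradation genes through ER stress elements in their promoters. The windows were those described above for the ATF4 element. The ER stress response element is CCAAT and CCACG with 9 bases between. Among genes with a window it was found in 4 of 8 folding genes and in 2 of 7 degradation genes. It was found in 0 of 17 ATF4 targets, Pycr1 included. Over all windows the element was found in 0.119% (39). Its variant, ATTGG and CCACG with 1 base between, was found in Herpud1, with 0.0365% of all windows (12). Herpud1 thus held this variant and the ATF4 element, which do not overlap. The capitals mark the match in each gene that holds one; a match read as CGTGG before ATTGG lies on the opposite strand.
Calr, chr8:84847060-84847108, minus strand: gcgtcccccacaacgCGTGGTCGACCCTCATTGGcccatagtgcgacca
Canx, chr11:50325785-50325833, minus strand: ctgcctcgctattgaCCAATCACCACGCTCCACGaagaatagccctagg
Pdia6, chr12:17266476-17266524, plus strand: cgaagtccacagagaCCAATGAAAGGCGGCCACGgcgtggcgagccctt
Creld2, chr15:88819505-88819553, plus strand: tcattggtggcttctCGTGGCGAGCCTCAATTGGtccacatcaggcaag
Derl3, chr10:75893227-75893275, plus strand: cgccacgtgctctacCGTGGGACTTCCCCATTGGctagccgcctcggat
Syvn1, chr19:6046517-6046565, plus strand: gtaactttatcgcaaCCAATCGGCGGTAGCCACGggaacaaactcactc
Herpud1, chr8:94386362-94386402, plus strand: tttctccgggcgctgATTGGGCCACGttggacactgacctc

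The 7 genes with either element had differences of -0.27 to 0.17, 5 of them negative, and a median of -0.07, equal to that of all 41 stress genes. A match is a string of letters and not a measured site. The XBP1 element TGACGTGG was found in 0 of the 38 genes and in 0.676% of all windows (222).

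**Figure D3:**
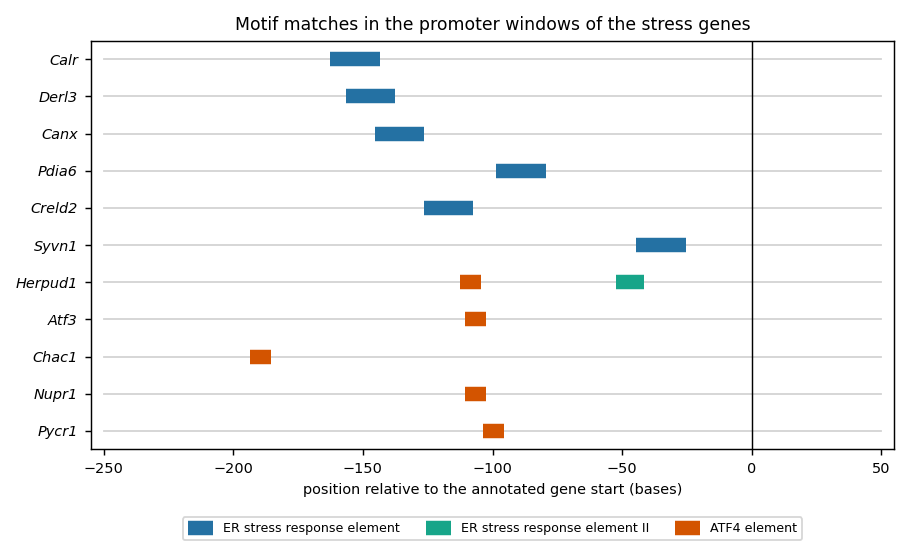
Position of each match (horizontal axis, bases from the annotated gene start, which is at 0) in the windows of the 11 stress genes that hold one; colours give the motif. The 7 matches of the ER elements lie between 162 and 26 bases before the start, and the 5 of the ATF4 element between 193 and 96.

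ER folding was then set against the ATF4 targets. The median difference was -0.11 for the 8 folding genes and 0.02 for the 17 ATF4 targets, so folding lay 0.13 lower. To follow both on each array, every gene was centred on its own mean over the 6 arrays and the mean over a list was taken. ER folding minus ATF4 targets was then 0.08, 0.22 and -0.39 in Ppara-/- replicates 1, 2 and 3, and 0.27, 0.00 and -0.18 in Ppara+/+ replicates 1, 2 and 3. The average was -0.03 ± 0.32 in Ppara-/- and 0.03 ± 0.23 in Ppara+/+ leukemia (SD, n = 3 each), so the genotypes overlapped and differed by less than the spread within either. The difference of the medians was -0.13 with all arrays. It turned to 0.09 when Ppara-/- replicate 3 was left out and to 0.03 when Ppara+/+ replicate 1 was, and leaving out Ppara-/- replicate 2 gave -0.23. It was also positive with array weights (0.055) and with the negative-control median as a covariate (0.0045).

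ER folding and the ATF4 stress targets differed more clearly from array to array than between genotypes. The 8 measured ATF4 targets of amino acid synthesis had centred means of 0.00, -0.01 and -0.17 on Ppara-/- replicates 1, 2 and 3. On Ppara+/+ replicates 1, 2 and 3 these means were 0.11, 0.03 and 0.04. This list was thus lowest and highest on the same arrays as ER folding. Centred ER folding was highest on Ppara-/- replicate 2 (0.12) and Ppara+/+ replicate 1 (0.20), where the negative controls were also highest, and lowest on Ppara-/- replicate 3 (-0.31); 7 of 8 folding genes had their lowest signal on that array. The ATF4 stress targets showed another order, with 0.30 on Ppara-/- replicate 3 and 0.26 on Ppara+/+ replicate 3, against -0.07 and -0.18 on Ppara-/- replicates 1 and 2 and -0.24 and -0.08 on Ppara+/+ replicates 1 and 2. Within Ppara-/- leukemia replicate 3 was the highest array for 8 of the 9 stress targets, and within Ppara+/+ leukemia replicate 3 was the highest, or tied for it, for 9 of 9. Atf3, Ddit3 and Sesn2, picked once their values were known, had a mean of 0.60 on Ppara-/- replicate 3 and 0.43 on Ppara+/+ replicate 3, and of -0.33 to -0.19 on the other 4 arrays.

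The mean over genes that respond to the handling of cells was also highest on replicate 3 of either genotype. The other 4 arrays came in another order than for the stress targets. Single genes did not all share this. Ier2, Ier3 and Hspa1a were highest on replicate 3 of either genotype, while Jun and Dusp1 were highest on Ppara-/- replicate 2 and Ppara+/+ replicate 1. The centred mean over 9 immediate early and heat shock genes was -0.17, 0.08 and 0.23 on Ppara-/- replicates 1, 2 and 3 and -0.13, -0.36 and 0.35 on Ppara+/+ replicates 1, 2 and 3. The heat shock gene Hspa1a was named after its values were seen. It had signals of 8.50, 10.37 and 10.93 in Ppara-/- and 9.21, 8.94 and 11.89 in Ppara+/+ samples. Its ranges of 2.43 in Ppara-/- and 2.95 in Ppara+/+ samples were the widest of the 9, so the mean leans most on this gene. Ier3 was separated in the upper direction (difference 0.78, limma adjusted p = 0.613), as were 5.15% of all genes. None of the 9 passed the test, and their part in the stress target values was not tested. For 38 of the 41 stress genes the larger of the within-genotype ranges exceeded the difference between genotypes; the exceptions were Eif2ak1, Shmt2 and Mthfd2.

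**Figure D4:**
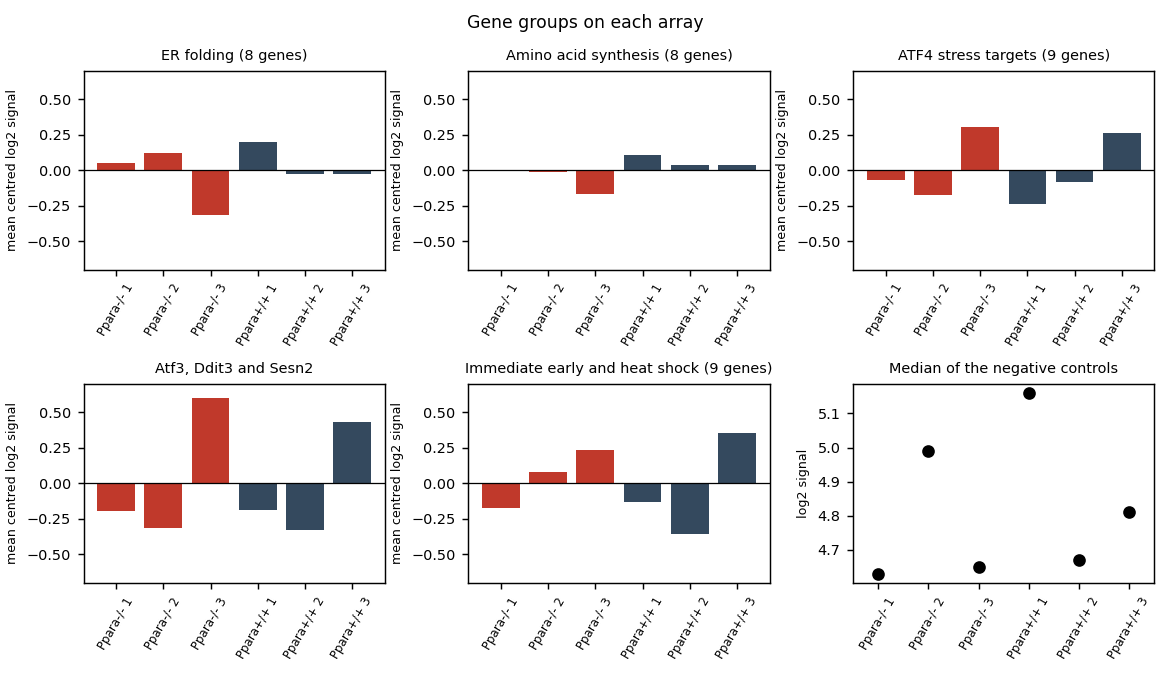
Mean centred log2 signal (vertical axis) of 5 gene groups on each array, Ppara-/- in red on the left and Ppara+/+ in blue on the right, with the negative-control median in the last panel. ER folding is lowest on Ppara-/- replicate 3 (-0.31), and Atf3, Ddit3 and Sesn2 are highest on replicate 3 of both genotypes (0.60 and 0.43).

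Other genes of the same pathways were read from the same fit, 104 measured of 113 listed, and 0 of them passed the test. Of 42 other ER folding and translocation genes 36 had a negative difference, with a median of -0.14. Over all genes 12552 of 30142 differences were negative. Among genes with a mean above 7.91, where 29 of the 42 lay, the share was 54.7%. The centred mean of the 42 was again lowest on Ppara-/- replicate 3 (-0.23) and highest on Ppara+/+ replicate 1 (0.29). The 42 are thus not independent of each other. Txndc5, a protein disulfide isomerase, had 7.60, 6.76 and 7.78 in Ppara-/- and 8.25, 8.06 and 8.57 in Ppara+/+ samples (difference -0.91, SE 0.25; limma adjusted p = 0.437). The groups were apart, and Ppara-/- replicate 2 was the lowest array. The mean of the monocyte markers was also lowest on that array (6.64). Csf1r, Cd68, Ctss and Ly86 were lowest there, while Adgre1, Cx3cr1 and Vcam1 were not. The part of these markers in the Txndc5 values was not tested. Ssr1 of the translocon (-0.43), the oxidase Ero1b (-0.43) and Dad1 of the glycosylation complex (-0.47) followed, with limma adjusted p of 0.797, 0.844 and 0.844. BiP itself, the gene Hspa5, chosen after its values were seen, had 10.49, 11.01 and 10.52 in Ppara-/- and 10.94, 10.50 and 10.67 in Ppara+/+ samples (difference -0.03, SE 0.17; limma adjusted p = 0.997).

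The 13 other ER degradation genes had 11 negative differences and a median of -0.06, led by Ubxn4 (-0.21), Rnf5, Ufd1 (both -0.19) and Nploc4 (-0.16). The 34 other ATF4 targets had 16 positive and 18 negative differences and a median of -0.02. Slc1a5, a glutamine transporter, had 9.21, 9.09 and 9.27 in Ppara-/- and 8.98, 8.83 and 8.79 in Ppara+/+ samples, which did not overlap (difference 0.32, SE 0.11; limma adjusted p = 0.603). The growth factor Vegfa (0.29), the factor Jdp2 (0.23) and the arginine transporter Slc7a1 (-0.28) came next, with limma adjusted p of 0.797, 0.970 and 0.974. The 15 other regulators had 9 negative and 6 positive differences and a median of -0.04, led by Wfs1 (-0.21), Eif2b1 (-0.18), Eif2b4 (0.17) and Map3k5 (-0.16).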

How the data were processed

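RNA of 6 samples, 3 Ppara-/- and 3 Ppara+/+ by their titles, was measured on Affymetrix arrays. The authors deposited log2 signals for each probe set on each array; the submitters' processing notes name RMA (background correction, quantile normalization and summary of probes) and limma, without versions. Other settings were not given in the sources used here. Quantile normalization removes shifts shared by most genes. Of 72688 rows 6732 were controls (5222 negative). A platform annotation table paired 30604 rows with 1 symbol, 2146 with several and left 33206 unnamed; symbols were updated by gene ID through RefSeq (GRCm38.p6). Each of 30142 genes was tested through its brightest probe set, without a filter, by limma 3.58.1 in R 4.3.3 (lmFit, eBayes, no covariates, two-sided, Benjamini-Hochberg over all genes, threshold 0.05), a fit tested on simulated data. An exact permutation test of 3 arrays against 3 cannot go below 0.1. Python 3.11.15 with pandas 2.3.3 served for tables and matplotlib 3.10.9 for plots. The number of arrays limits the precision.

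The members and lists were chosen with earlier results of these data known. All members are named; full values go to the 3 largest differences and the brightest gene per role, and for other pathway genes up to 4 per list by p are named. Of the marker lists not given above, T and NK cells (8 genes) and maturing neutrophils (10) each had a median of 0.03. The others had medians of 0.01 (erythroid, 6), 0.11 (megakaryocytes, 4) and 0.04 (stroma and endothelium, 8). The neutrophil median covered differences in both directions. Retnlg (1.28) was separated in the upper direction, and Mmp8 (-0.65) and Lcn2 (-0.30) in the lower. Over all genes 8.78% were separated in either direction. None of the 10 neutrophil markers passed the test. Alternatives were another prior, 3 normalizations, 2 filters, averaged probe sets, all rows, array weights, a block for the replicate number, leaving out each array, another threshold and other list limits. A fit that left out both arrays with the brightest negative controls, and one that took the negative-control median as a covariate, were chosen after seeing the data.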

Additional observations from a re-analysis of the deposited data

How the results depend on the processing

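In none of the 18 other fits did limma call a stress gene; at an unadjusted p under 0.05 there were 5 in the reported fit and 2 to 9 in the others. In place of 38 genes over the whole array, limma called 271 with array weights, 70 with a trended and robust prior, 23 after quantile normalization, 14 after cyclic loess, 13 after median centring, 1 among genes above the negative controls, 76 at an adjusted p under 0.1, 6 to 38 with each array left out, and 0 (2870 at an unadjusted p under 0.05) without the 2 arrays with the highest negative controls. The labels do not say whether samples of the same replicate number belong together. Correlations of same-numbered arrays, each taken relative to its genotype mean, were -0.33, -0.47 and 0.11. With 3 arrays per genotype these values cannot decide it. With the number as a replicate block 12 genes and 0 stress genes were called. With 1 array left out, the median lay between -0.09 and -0.02 over the stress genes, -0.19 and 0.04 for ER folding and -0.07 and 0.07 for ATF4 targets, and folding minus ATF4 targets between -0.23 and 0.09; that difference was 0.055 with array weights and 0.0045 with the negative-control median as a covariate. The ATF4 target median was -0.095 with array weights and -0.11 for amino acid synthesis alone; the cause was not tested.

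Of the 41 genes, 24 kept the sign of their difference in every fit that held them and 17 did not; in all 17 the genotypes overlapped. With 1 array left out the ranges were -0.187 to 0.0033 for Xbp1, -0.068 to 0.11 for Ppp1r15b, -0.555 to 0.135 for Atf3, -0.05 to 0.46 for Ddit3, -0.152 to 0.158 for Trib3, -0.07 to 0.265 for Chac1, -0.075 to 0.305 for Sesn2, -0.032 to 0.083 for Psph, -0.242 to 0.005 for Calr, -0.35 to 0.005 for Pdia3, -0.133 to 0.142 for Pdia6, -0.22 to 0.07 for P4hb, -0.173 to 0.087 for Sdf2l1, -0.027 to 0.348 for Herpud1, -0.298 to 0.043 for Sel1l, -0.085 to 0.155 for Syvn1 and -0.065 to 0.087 for Sec61b. With array weights signs turned for Ppp1r15b (-0.056), Ddit3 (-0.10), Trib3 (-0.095), Chac1 (-0.042), Sesn2 (-0.0062), Pdia6 (0.10), Sdf2l1 (0.134), Herpud1 (-0.0047) and Syvn1 (-0.029). With the negative-control median as a covariate they turned for Trib3 (-0.079), Psph (-0.0024), Pdia6 (0.067), Sel1l (0.012) and Sec61b (-0.0502). They turned after cyclic loess for Pdia6 (0.0203), Sdf2l1 (0.036) and Sec61b (-0.0073), after quantile normalization for Trib3 (-0.011), Sdf2l1 (0.0053) and Sec61b (-0.0067), and after median centring for Trib3 (-0.0017) and Sec61b (-0.012). Without the 2 arrays with the highest negative controls they turned for Atf3 (0.03), Trib3 (-0.10), Chac1 (-0.07) and Psph (-0.02). The exact test per gene, whose smallest p is 0.1, could not reach the threshold. Of the 41 genes 23 had a mean above 7.91; in the other 18 a signal near the negative controls limits what could be seen.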
